A study of Mus musculus with 36 samples.

Results

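Tibialis anterior and extensor digitorum longus lie side by side in the anterior compartment of the lower leg, lift the foot and extend the toes, and are both regarded as fast muscles. Wild type mice gave 7 of the 36 arrays of the series for them: 4 of tibialis anterior (2 at 7 months and 2 at 10 months of age) and 3 of extensor digitorum longus (2 at 7 months and 1 at 10 months). The arrays were taken by the muscle and genotype in their titles. Each array (Affymetrix MG_U74Av2) was hybridised with RNA pooled from 3 to 5 mice, so an array averages over animals and shows no spread between them. The other arrays came from wild type gastrocnemius, plantaris and diaphragm and from all 5 muscles of mice transgenic for alpha tropomyosin slow. Neither the strain nor the design of the transgene is stated in the sources used here, nor is the sex of the mice behind these 7 arrays. Nothing in the labels says that the arrays of one group came from separate pools, so p-values measure the spread between arrays, which may be technical.

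A muscle fibre is slow or fast according to which member of each contractile gene family it uses. Slow fibres carry the beta myosin heavy chain, slow troponin subunits and a cardiac-type calcium pump, and they suit steady work. Fast fibres carry the fast myosins, fast troponins, parvalbumin and their own calcium pump, and they suit short, strong contractions. In a whole muscle, fewer fibres of a type and less RNA per fibre cannot be told apart.

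On the 7 arrays 61.0 to 68.4% of the probe sets had a scaled signal of 100 or more, and the ratio of the 3' to the 5' Gapdh probe set lay between 0.907 and 1.60. The correlation of log2 signals was 0.847 to 0.936 among tibialis anterior arrays, 0.885 to 0.919 among extensor digitorum longus arrays and 0.834 to 0.937 between the muscles. Pvalb, the parvalbumin of fast fibres, lay between 48941 and 61462 on tibialis anterior arrays and between 30784 and 55405 on extensor digitorum longus arrays, so this defining fast fibre gene was abundant in both. Arrays numbered 1 in the titles came with a filled scanner record and those numbered 2 with an empty one. Each kind of record holds both muscles. Differences are therefore also given with the record as a term in the model (the record block) and within each kind. The second 7-month array is the only wild type extensor digitorum longus array with an empty record. Values within empty records rest on it for that muscle, and set it against tibialis anterior arrays of both ages. The filled-record arrays of the 2 muscles shared 0 scan days and no chip lot, so among them scan day, chip lot and muscle cannot be told apart.

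Of 9322 probe sets tested, 20 (0.215%) differed between wild type tibialis anterior and extensor digitorum longus at an adjusted p under 0.05 (limma, Benjamini-Hochberg). Lower in tibialis anterior were 15 (0.161%), and 5 (0.0536%) were higher. At an unadjusted p under 0.05 there were 741 (7.95%). The 20 covered 17 named genes. The genes with the greatest differences encode slow fibre proteins, each lower in tibialis anterior. All 20 also passed with the record block, which raised the count to 66 (0.708%). Within filled records 26 passed (0.279%), 14 of them among the 20, and within empty records 7 passed (0.0751%), 5 of them among the 20. At an unadjusted p under 0.05 these shares were 8.59% and 7.65%. All 20 had the same sign in both kinds of record, though within empty records extensor digitorum longus is represented only by its second 7-month array. Without the 10-month array of extensor digitorum longus, the only one of that age, 10 probe sets passed. The arrays of the 2 muscles did not overlap for 18 of the 20. Over all probe sets the share was 5.22% (2.11% with tibialis anterior higher and 3.11% with it lower). The 20 were picked for their difference on these same arrays. Neither the separation nor the shared sign in both kinds of record is therefore separate evidence for them.

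Of 11 tested genes of slow fibre sarcomere and calcium handling, 7 fell in tibialis anterior and 0 rose. The median log2 difference of the 11 was -2.82, against -0.02 over all probe sets. The 7 were Myh7, Myl2, Tnnt1, Tnnc1, Tnni1, Tpm3 and Atp2a2, and they make up the myosin, the troponin complex, a tropomyosin and the calcium pump of slow fibres. The mean signal in tibialis anterior was between 4.13% (Tnnt1) and 17.4% (Tpm3) of that in extensor digitorum longus. Each of the 7 kept arrays of the muscles fully apart.

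The sequences just before the starts of the slow troponin subunit genes are shown because all 3 members of that complex fell together. RefSeq promoter windows (build GRCm38.p6) were held for 6 of the 7 genes, and Atp2a2 had none. Each line gives the 250 bases before the annotated start on the gene's own strand, 5' to 3', with matches to the motifs searched in capitals. Tnnt1 lies at chr7:4515976-4516225 on the minus strand, Tnnc1 at chr14:31208062-31208311 on the plus strand and the first window of Tnni1 at chr1:135799171-135799420 on the plus strand.
Tnnt1: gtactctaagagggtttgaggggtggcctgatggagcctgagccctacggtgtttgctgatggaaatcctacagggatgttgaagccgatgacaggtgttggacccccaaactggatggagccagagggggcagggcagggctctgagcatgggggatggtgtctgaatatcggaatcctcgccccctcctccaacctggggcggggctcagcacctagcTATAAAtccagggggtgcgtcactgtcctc
Tnnc1: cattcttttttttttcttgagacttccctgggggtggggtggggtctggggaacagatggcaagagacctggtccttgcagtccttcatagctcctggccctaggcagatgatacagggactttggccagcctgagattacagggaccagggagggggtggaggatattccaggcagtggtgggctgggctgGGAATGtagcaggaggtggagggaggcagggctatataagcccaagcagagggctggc
Tnni1: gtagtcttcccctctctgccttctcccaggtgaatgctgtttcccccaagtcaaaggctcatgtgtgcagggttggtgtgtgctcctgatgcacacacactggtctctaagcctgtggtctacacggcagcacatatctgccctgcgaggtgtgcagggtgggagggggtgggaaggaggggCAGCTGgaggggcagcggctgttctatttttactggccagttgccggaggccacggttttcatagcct
The motifs were the E-box CAGCTG, the MCAT motif CATTCC, the TATA sequence TATAAA and the MEF2 motif, each on both strands and with no overlap between motifs in these windows. In Tnnt1 a TATAAA began 30 bases before the start. In Tnnc1 an MCAT motif, read on the other strand as GGAATG, began 58 bases before the start, and in Tnni1 an E-box began 68 bases before it. Among the first windows of the 6 genes, 2 held CAGCTG, 2 held MCAT, 1 held TATAAA and 0 held MEF2. Of 32851 mouse windows of this length 13.0%, 12.6%, 12.4% and 2.92% held these motifs, in the same order. A match in these letters is a description of sequence and shows no binding.

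Myh7, the beta myosin heavy chain that drives slow contraction, had signals of 795 and 384 at 7 months and 208 and 173 at 10 months in tibialis anterior, against 10530 and 9892 at 7 months and 7152 at 10 months in extensor digitorum longus. Every extensor digitorum longus array stood far above every tibialis anterior array. The difference on the log2 scale was -4.61 ± 0.41 (estimate ± SE; limma adjusted p = 2.74e-08), with -4.22 within filled and -5.00 within empty records. The Myh7 probe set is marked as shared within a gene family, so related myosins may add to it. A second, dim Myh7 probe set averaged 60.4 in tibialis anterior and 86.3 in extensor digitorum longus and did not pass (-0.27 ± 0.36, adjusted p = 0.934). Myl2, the regulatory light chain of slow myosin, read 723 and 796 at 7 months and 474 and 283 at 10 months in tibialis anterior, against 10582 and 8930 at 7 months and 10266 at 10 months in extensor digitorum longus. On the log2 scale it differed by -4.11 ± 0.27 (limma adjusted p = 4.70e-11), with -4.04 within filled and -4.08 within empty records. Both genes were lower on all 4 tibialis anterior arrays than on any extensor digitorum longus array.

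Troponin is the calcium switch of the thin filament. Tnnt1, slow troponin T, which binds tropomyosin, read 674 and 643 at 7 months and 634 and 371 at 10 months in tibialis anterior. In extensor digitorum longus it read 13190 and 15699 at 7 months and 13296 at 10 months. The fitted log2 difference was -4.52 ± 0.29 (limma adjusted p = 3.03e-11), with -4.24 within filled and -4.87 within empty records. A second, dimmer probe set of Tnnt1 gave -1.50 ± 0.28 (adjusted p = 0.00826). The probe sets agree in direction and differ in size. Tnnc1, the calcium-binding subunit shared by slow and cardiac muscle, read 415 and 27.3 at 7 months and 178 and 37.7 at 10 months in tibialis anterior, against 4315 and 3623 at 7 months and 2627 at 10 months in extensor digitorum longus. Its log2 difference was -4.45 ± 0.54 (limma adjusted p = 1.24e-05), with -3.39 within filled and -5.48 within empty records. Tibialis anterior arrays of Tnnc1 reached below 100, where the pseudocount sets how large a change appears. With pseudocounts of 16 and 200 in place of 50 it was -4.90 and -3.47. Tnni1, the inhibitory subunit of slow troponin, read 714 and 828 at 7 months and 706 and 704 at 10 months in tibialis anterior. In extensor digitorum longus it read 4271 and 6560 at 7 months and 5456 at 10 months. The difference on the log2 scale was -2.82 ± 0.29 (limma adjusted p = 5.77e-07), with -2.68 within filled and -3.02 within empty records. The tibialis anterior arrays of Tnni1 lay close together.

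Tpm3, which encodes the alpha tropomyosin of slow fibres, read 1088 and 1904 at 7 months and 831 and 2083 at 10 months in tibialis anterior, against 7445 and 9840 at 7 months and 8193 at 10 months in extensor digitorum longus. On the log2 scale it differed by -2.60 ± 0.41 (limma adjusted p = 0.000913), with -2.97 within filled and -2.28 within empty records, where it missed the threshold (adjusted p = 0.204). The other tropomyosins did not pass: Tpm2, the beta form, gave 0.09 ± 0.18 and Tpm1, the alpha form of fast and cardiac muscle, gave 0.09 ± 0.21. The Tpm1 probe set was dim, averaging 567 in tibialis anterior and 510 in extensor digitorum longus, against 14831 and 14254 for Tpm2. Atp2a2, the calcium pump of slow and cardiac muscle, read 284 and 226 at 7 months and 234 and 81.9 at 10 months in tibialis anterior. In extensor digitorum longus it read 2507 and 1336 at 7 months and 2055 at 10 months. The fitted log2 difference was -3.10 ± 0.30 (limma adjusted p = 1.28e-07), with -2.91 within filled and -2.86 within empty records, the last with an adjusted p of 0.187.

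**Figure D1:**
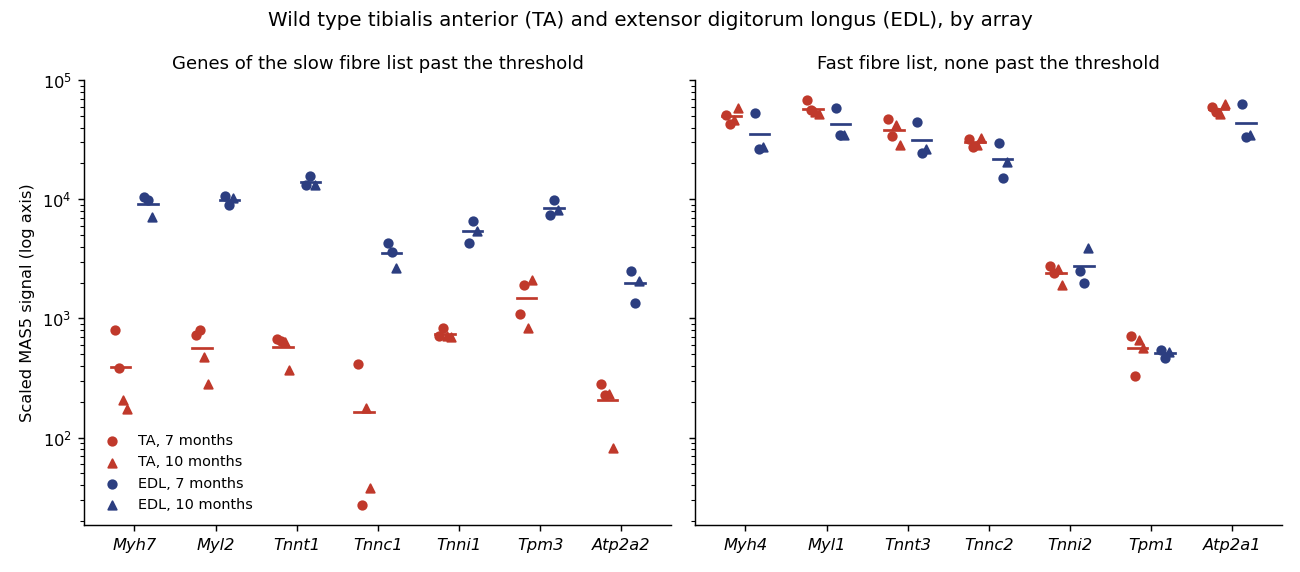
Scaled MAS5 signal on a log axis for each of the 7 wild type arrays, tibialis anterior (red) left of extensor digitorum longus (blue), circles for 7 months and triangles for 10 months, bars for means. The 7 slow fibre genes on the left keep the muscles apart, as in Myl2 with tibialis anterior arrays at 283 to 796 and extensor digitorum longus arrays at 8930 to 10582, while those of the 7 fast fibre genes shown on the right, of 13 tested, overlap.

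The other 4 tested genes of the slow list did not pass. Myl3, the essential light chain of slow and ventricular muscle, averaged 2223 ± 928 in tibialis anterior and 2239 ± 707 in extensor digitorum longus (SD, n = 4 and 3; log2 difference -0.09 ± 0.35, limma adjusted p = 0.986). Its arrays overlapped. Mb, the oxygen store myoglobin, averaged 25713 ± 4923 in tibialis anterior and 17209 ± 1463 in extensor digitorum longus, and its arrays did not overlap, yet its log2 difference of 0.60 ± 0.22 missed the threshold (limma adjusted p = 0.402). Sln, the calcium pump regulator sarcolipin, gave 0.49 ± 0.46 and Casq2, the cardiac and slow calsequestrin, gave -0.21 ± 0.35, both at low signals. Myl3, Mb, Sln and Casq2 fall outside the naming rule and were chosen after their values were seen.

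Across wild type muscles (mean ± SD), tibialis anterior had the lowest mean of each of the 7 slow genes, and extensor digitorum longus lay next, below gastrocnemius, plantaris and diaphragm. Myh7 averaged 390 ± 285 in tibialis anterior and 9191 ± 1794 in extensor digitorum longus. It averaged 18371 ± 2478 in gastrocnemius (n = 4), 22408 ± 2119 in plantaris (n = 3) and 14662 ± 4426 in diaphragm (n = 4). Tnni1 averaged 738 ± 59.9 in tibialis anterior and 5429 ± 1145 in extensor digitorum longus, against 9721 ± 2639 in gastrocnemius, 14308 ± 1385 in plantaris and 8989 ± 2489 in diaphragm. The spreads of diaphragm and gastrocnemius overlap for both genes, and no test of this order was made. Diaphragm and extensor digitorum longus arrays overlap too. The first 7-month diaphragm array read 8213 for Myh7 and 6101 for Tnni1, against up to 10530 and 6560 in extensor digitorum longus.

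Of 13 tested fast fibre genes, 0 passed in either direction. The log2 differences ran from -0.22 to 0.59 with a median of 0.29, and 12 were positive, but under quantile normalisation the median was 0.02 and 7 were positive. Myh4, the fastest myosin heavy chain, read 51278 and 43068 at 7 months and 46711 and 58637 at 10 months in tibialis anterior, against 53152 and 26269 at 7 months and 27397 at 10 months in extensor digitorum longus. The first 7-month extensor digitorum longus array read as high as tibialis anterior and the other 2 read lower, so the groups overlap. Its log2 difference was 0.59 ± 0.28 (limma adjusted p = 0.606). Myh1, the fast 2X myosin, gave 0.39 ± 0.20 (adjusted p = 0.665), Myl1, the fast light chain, 0.49 ± 0.22 (adjusted p = 0.542) and Atp2a1, the fast calcium pump, 0.49 ± 0.24 (adjusted p = 0.631). The same extensor digitorum longus array was the highest of its group for each of these.

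Genes of energy supply gave 0 calls, though most had higher estimates in tibialis anterior. Of 40 tested genes of oxidative phosphorylation 0 passed, with a median of 0.27 (0.08 under quantile normalisation). Positive were 36 of them (28 under quantile normalisation). Ndufb5, a subunit of respiratory complex I, had a tibialis anterior mean of 123% of its extensor digitorum longus mean (log2 difference 0.30 ± 0.17, limma adjusted p = 0.705). Of 22 genes of glycolysis and glycogen use 0 passed, with a median of 0.20 (0.05 under quantile normalisation). Positive were 17 of them (15 under quantile normalisation). At an unadjusted p under 0.05 in limma there were 7 of the 22, against 7.95% of all probe sets. Ldha, which makes lactate, read between 39302 and 42923 in tibialis anterior and between 25180 and 38724 in extensor digitorum longus. These did not overlap, and the log2 difference was 0.50 ± 0.19 (limma adjusted p = 0.402). Of 18 genes of fatty acid uptake and oxidation 0 passed, with a median of 0.19, and Pdk4, which holds back glucose oxidation, gave 0.13 ± 0.40.

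**Figure D2:**
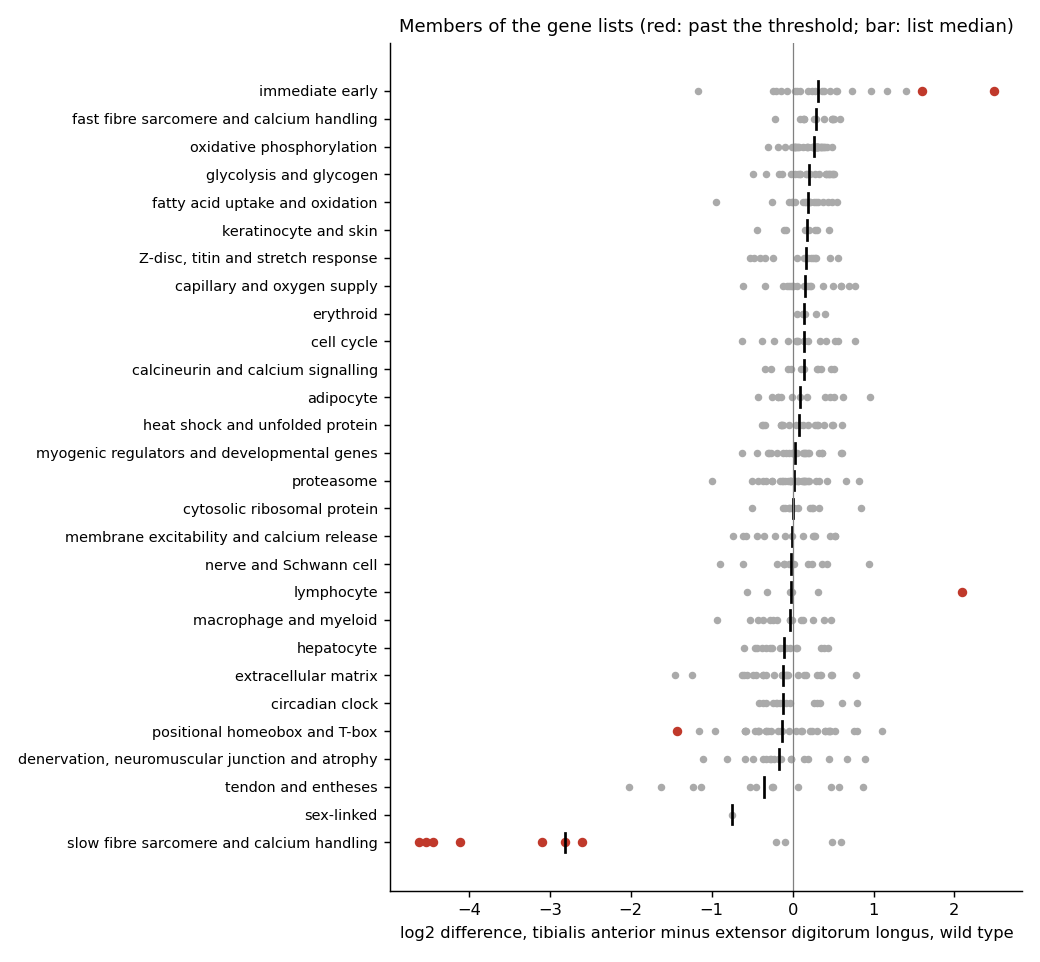
Log2 difference, wild type tibialis anterior minus extensor digitorum longus, of every tested member of the 28 gene lists, red where past the threshold, with a black bar at each list's median. The slow fibre list holds 7 red points between -4.61 and -2.60, and only 3 other lists hold any.

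Genes that set position along the body or limb gave 1 call among 35 tested, Zic1, a zinc finger factor of early patterning. The median of these 35 was -0.13. Zic1 read 15.9 and 13.7 at 7 months and 15.3 and 20.1 at 10 months in tibialis anterior, against 235 and 170 at 7 months and 55.2 at 10 months in extensor digitorum longus. The difference on the log2 scale was -1.43 ± 0.28 (limma adjusted p = 0.0155), with adjusted p values of 0.457 within filled and 0.498 within empty records. At these low signals its size ran from -0.63 to -2.12 with the pseudocount. It missed the threshold under quantile normalisation (adjusted p = 0.0647), without the first or second 7-month array of extensor digitorum longus (0.120 and 0.0749) and without the first 7-month array of tibialis anterior (0.0575). Mean Zic1 was 276 ± 31.3 in plantaris and between 12.3 and 21.3 in gastrocnemius and diaphragm. Hoxc6, a homeobox gene of limb and trunk position, gave -1.15 ± 0.27 and passed with the record block but not without it (adjusted p = 0.0309 and 0.0917). It is named after its values were seen.

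Sim2, a transcription factor of the basic helix-loop-helix PAS family, went the other way. It read 246 and 286 at 7 months and 308 and 137 at 10 months in tibialis anterior, against 16.1 and 41.7 at 7 months and 28.7 at 10 months in extensor digitorum longus. The arrays did not overlap, and the log2 difference was 1.90 ± 0.35 (limma adjusted p = 0.0079), with 2.18 within filled and 1.45 within empty records (adjusted p = 0.0577 and 0.587). With pseudocounts of 16 and 200 it was 2.55 and 0.96. It missed the threshold without the first 7-month or the 10-month extensor digitorum longus array (adjusted p = 0.0513 and 0.138). Sim2 averaged 269 ± 57.3 in gastrocnemius, 187 ± 37.0 in plantaris and 39.4 ± 30.2 in diaphragm.

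Ighm, the heavy chain of immunoglobulin M made by B cells, rose in tibialis anterior. It read 1979 and 2731 at 7 months and 3576 and 1655 at 10 months in tibialis anterior, against 520 and 429 at 7 months and 593 at 10 months in extensor digitorum longus. On the log2 scale it differed by 2.09 ± 0.40 (limma adjusted p = 0.0123), with 2.16 within filled and 2.19 within empty records (adjusted p = 0.00204 and 0.277). A second probe set gave 2.19 ± 0.41 (adjusted p = 0.00892), and the other 6, with lower signals, did not pass. Without the second 7-month or the 10-month extensor digitorum longus array the adjusted p was 0.0746 and 0.257, and without the first 10-month tibialis anterior array it was 0.0560. Ighm was the only 1 of 7 tested lymphocyte markers to pass. The B cell markers Cd79a, Cd79b and Ms4a1 gave -0.57 ± 0.45, -0.04 ± 0.46 and -0.02 ± 0.37, and their adjusted p values were 0.809 or more. The summed signal of the other 6 lymphocyte markers overlapped, at 2527 to 4822 on tibialis anterior arrays and 2322 to 3543 on extensor digitorum longus arrays. Ighm averaged 3593 ± 926 in gastrocnemius, 1005 ± 126 in plantaris and 2760 ± 861 in diaphragm.

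Fos and Egr1, transcription factors induced within minutes of a stimulus, were the only 2 of 22 tested immediate early genes to pass, both higher in tibialis anterior. Fos read 2925 and 790 at 7 months and 5147 and 6584 at 10 months in tibialis anterior, against 374 and 1475 at 7 months and 305 at 10 months in extensor digitorum longus. The second 7-month arrays cross over, so the groups overlap. The fitted log2 difference was 2.49 ± 0.55 (limma adjusted p = 0.04998), with 3.34 within filled and 0.63 within empty records (adjusted p = 0.00331 and 0.826). A second, dim Fos probe set gave 0.31 ± 0.35 (adjusted p = 0.905). Egr1 read 865 and 445 at 7 months and 1353 and 1093 at 10 months in tibialis anterior, against 351 and 618 at 7 months and 98.9 at 10 months in extensor digitorum longus, also with overlap. Its log2 difference was 1.60 ± 0.35 (limma adjusted p = 0.0447), with 2.21 within filled and 0.17 within empty records (adjusted p = 0.00359 and 0.956). Both missed the threshold without any 1 of 5 arrays, the exceptions being the second 7-month array of each muscle. The adjusted p was then 0.0711 to 0.802 for Fos and 0.0817 to 0.999 for Egr1. The median of the 22 genes was 0.32, with 17 positive and 5 negative, and the values ran from -1.16 to 2.49. Btg2, an early gene that slows cell division, gave 1.16 ± 0.27 and passed with the record block and within filled records but not without the block (adjusted p = 0.0295, 0.00359 and 0.0686). Its value is given after it was seen.

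**Figure D3:**
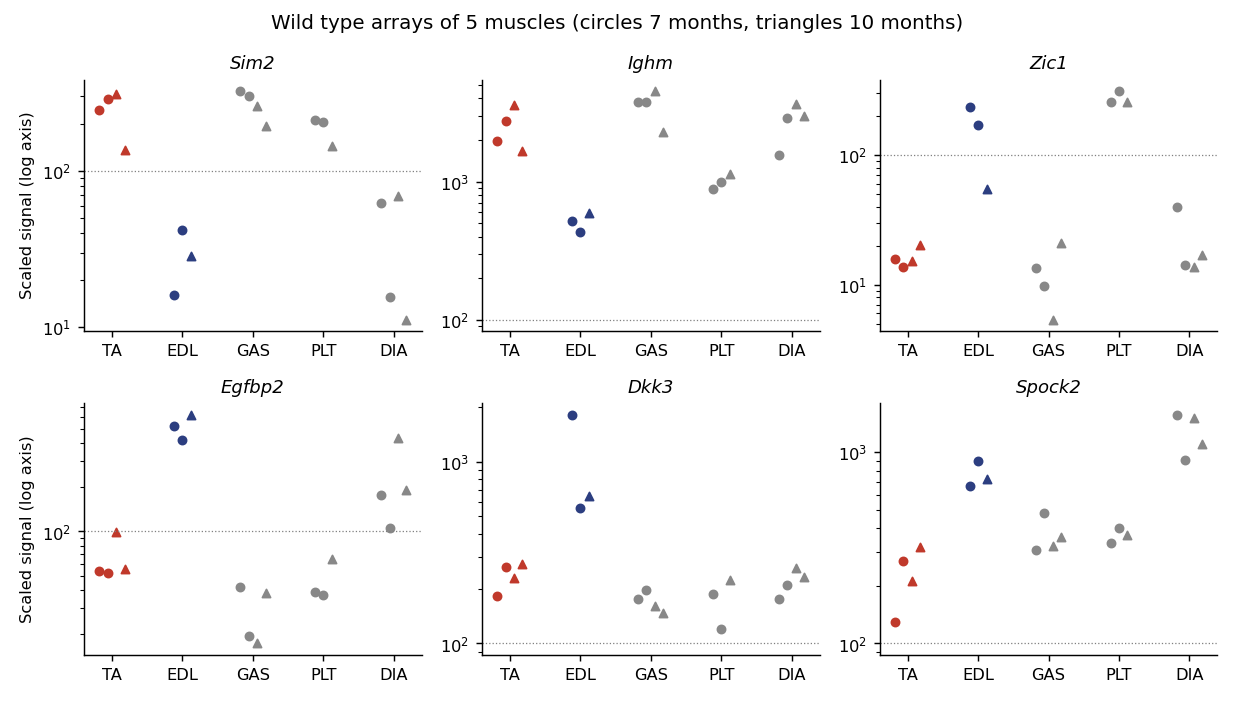
Scaled signal on a log axis of 6 genes past the threshold on the wild type arrays of tibialis anterior (TA), extensor digitorum longus (EDL), gastrocnemius (GAS), plantaris (PLT) and diaphragm (DIA), 1 point per array, with a dotted line at 100. Sim2 and Ighm are higher in tibialis anterior than in extensor digitorum longus and the other 4 are lower, and Zic1 rises above 100 only in extensor digitorum longus and plantaris.

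Among the other genes that fell in tibialis anterior, Egfbp2, a kallikrein-family protease, had the largest difference. It read 53.4 and 51.8 at 7 months and 99.5 and 55.8 at 10 months in tibialis anterior, against 524 and 419 at 7 months and 621 at 10 months in extensor digitorum longus. The difference on the log2 scale was -2.36 ± 0.33 (limma adjusted p = 0.000112), with -2.32 within filled and -2.18 within empty records (adjusted p = 0.0381 and 0.364). Kallikreins are near copies of each other and the probe set is marked as shared within the family, so which member was measured is uncertain. With a pseudocount of 200 the Egfbp2 difference was -1.47, since its tibialis anterior signals lay below 100. It averaged 29.1 ± 12.5 in gastrocnemius, 46.7 ± 15.5 in plantaris and 227 ± 143 in diaphragm. One further probe set that maps to several genes also passed, at -1.82 ± 0.31 (adjusted p = 0.00249).

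Dkk3, a secreted relative of the Wnt inhibitors, read 182 and 263 at 7 months and 230 and 275 at 10 months in tibialis anterior, against 1808 and 559 at 7 months and 648 at 10 months in extensor digitorum longus. On the log2 scale it differed by -1.73 ± 0.34 (limma adjusted p = 0.0140), with -2.16 within filled and -0.93 within empty records (adjusted p = 0.142 and 0.702). One extensor digitorum longus array was far above the other 2, and without it Dkk3 gave -1.19 (adjusted p = 0.122). Without the first 7-month tibialis anterior array the adjusted p was 0.0754. Spock2, a secreted proteoglycan of the matrix, read 129 and 270 at 7 months and 212 and 318 at 10 months in tibialis anterior, against 669 and 901 at 7 months and 728 at 10 months in extensor digitorum longus. The fitted log2 difference was -1.57 ± 0.30 (limma adjusted p = 0.0112), with -1.79 within filled and -1.47 within empty records (adjusted p = 0.0157 and 0.587). Without the second 7-month or the 10-month extensor digitorum longus array, or the first 7-month tibialis anterior array, the adjusted p of Spock2 was 0.0749, 0.257 and 0.0755. A second, dim Spock2 probe set gave -1.27 ± 0.43 (adjusted p = 0.354).

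Atp13a1, a P-type ATPase of the endoplasmic reticulum, averaged 87.9 ± 21.5 in tibialis anterior and 421 ± 196 in extensor digitorum longus (SD, n = 4 and 3; log2 difference -1.77 ± 0.36, limma adjusted p = 0.0174). Its adjusted p within filled and empty records was 0.155 and 0.587. It missed the threshold without any 1 of 4 arrays, namely the second 7-month and the 10-month extensor digitorum longus arrays and the second 7-month and second 10-month tibialis anterior arrays, with adjusted p of 0.0577 to 0.825. Cpxm2, a secreted carboxypeptidase-like protein, passed by its dimmer probe set at -1.61 ± 0.32 (adjusted p = 0.0140), while its brighter one gave -1.27 ± 0.30 (adjusted p = 0.0786 without and 0.0295 with the record block). Its naming falls outside the rule.

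Of 12 tested tendon genes 0 passed, and 7 had arrays that did not overlap between the muscles, against 5.22% of all probe sets. The median was -0.36. Fmod, the tendon proteoglycan fibromodulin, read 411 and 1988 at 7 months and 3186 and 1197 at 10 months in tibialis anterior, against 6689 and 7252 at 7 months and 4568 at 10 months in extensor digitorum longus. Its log2 difference of -2.02 ± 0.50 had an adjusted p of 0.107 without and 0.0191 with the record block, and of 0.00067 within filled and 0.417 within empty records. Chad, the cartilage and tendon protein chondroadherin, gave -1.63 ± 0.47, with an adjusted p of 0.184 without and 0.0021 with the record block, and of 0.00331 within filled and 0.529 within empty records. It is named after its values were seen. Scx, the tendon cell transcription factor scleraxis, gave 0.87 ± 0.66 (adjusted p = 0.80), so the members did not share a direction. The summed signal of the 12 genes lay between 16216 and 23556 in tibialis anterior and between 25161 and 31321 in extensor digitorum longus, without overlap. Dcn, the brightest of them, made up much of each sum, averaging 12574 in tibialis anterior and 15010 in extensor digitorum longus. Of 28 genes of the extracellular matrix 0 passed, with a median of -0.12. Their summed signal did not overlap either, at 25595 to 30227 in tibialis anterior and 30921 to 37614 in extensor digitorum longus. Col1a1, a chain of type I collagen, gave -1.25 ± 0.32 and passed with the record block but not without it (adjusted p = 0.0456 and 0.111). A second Col1a1 probe set gave -0.25 ± 0.26 (adjusted p = 0.881).

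Markers of the other cells that a muscle sample can hold gave 0 calls in every list but that of lymphocytes. None passed among 15 tested macrophage, 12 nerve and Schwann cell, 13 adipocyte, 20 capillary, 6 erythroid, 8 skin and 17 hepatocyte genes, and their medians lay between -0.10 and 0.18. With the record block 1 capillary gene passed. The arrays of the 2 muscles did not overlap for 3 of the 12 nerve genes, 1 of the 13 adipocyte genes and 1 of the 20 capillary genes, against 5.22% of all probe sets. Among the nerve genes, Mbp, a protein of myelin, averaged 365 ± 55.7 in tibialis anterior and 718 ± 111 in extensor digitorum longus (log2 difference -0.90 ± 0.28, limma adjusted p = 0.256). This was the lowest value of the nerve list, in which 6 were positive, up to 0.94, and 6 negative. A second, dimmer Mbp probe set gave 0.05 ± 0.28 (limma adjusted p = 0.988). Alb, serum albumin made by hepatocytes, read 516 on the first 7-month tibialis anterior array and between 26.8 and 97.8 on the other 3, against 73.2 to 308 in extensor digitorum longus. Xist, the RNA of the silenced X chromosome, lay between 164 and 606 in tibialis anterior and between 516 and 595 in extensor digitorum longus (-0.75 ± 0.45).

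The remaining lists of muscle function and cell upkeep also had 0 members past the threshold. These were 25 myogenic regulators, 15 genes of the Z-disc and stretch response, 19 of denervation and atrophy, 15 of excitability and calcium release and 11 of calcineurin signalling. So were 20 heat shock, 14 circadian clock, 15 cell cycle, 33 proteasome and 14 ribosomal protein genes. With the record block 1 proteasome gene passed. Their medians lay between -0.17 and 0.16. Actc1, the cardiac actin, was 157% of its extensor digitorum longus level in tibialis anterior with no overlap (log2 difference 0.60 ± 0.30, adjusted p = 0.64). Myoz1, which ties calcineurin to the Z-disc of fast fibres, gave 0.14 ± 0.17.

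The same contrast in transgenic mice was set against that in wild type mice, to ask whether the muscle difference depends on genotype. Among transgenic arrays 16 probe sets passed (0.172%), 14 of them among the wild type 20, and all 20 had the same sign. The difference between the genotypes' contrasts passed for 2 probe sets (0.0215%), of Tnnt1 and Myl2, and for 188 at an unadjusted p under 0.05 (2.02%). Myl2 read 4731 and 5822 at 7 months and 7316 and 4020 at 10 months in transgenic tibialis anterior, against 15555 and 17815 at 7 months and 17203 at 10 months in transgenic extensor digitorum longus. The muscles were apart in transgenic mice too, by -1.66 ± 0.27 on the log2 scale, against -4.11 ± 0.27 in wild type mice, and transgenic minus wild type was 2.45 ± 0.38 (limma adjusted p = 0.00559). Tnnt1 gave -2.27 ± 0.29 in transgenic mice against -4.52 ± 0.29 in wild type mice, with 2.25 ± 0.40 for transgenic minus wild type (adjusted p = 0.0236). The Tnnt1 value of 2.25 had a limma adjusted p of 0.0627 to 0.178 when certain single arrays were left out. These were each of the 3 wild type extensor digitorum longus arrays and the second 10-month wild type tibialis anterior array. The second, dimmer Tnnt1 probe set differed by -1.72 ± 0.28 in transgenic and by -1.50 ± 0.28 in wild type mice. Its transgenic minus wild type value was -0.23 ± 0.38 and did not pass. For Myh7 transgenic minus wild type was 2.94 ± 0.57, which passed with the record block, when 3 probe sets (0.0322%) did, but not without it (adjusted p = 0.0325 and 0.0580). For Tnnc1 it was 2.65 ± 0.75 and did not pass with or without the block. The transgenic extensor digitorum longus arrays of Myh7 were uneven, with 4212 and 19256 at 7 months and 17170 at 10 months, and the file behind the last was marked by the submitters as incomplete. Zic1, Sim2 and Ighm differed between the muscles by -1.57 ± 0.28, 1.85 ± 0.35 and 2.11 ± 0.40 in transgenic mice (limma adjusted p = 0.00882, 0.0119 and 0.0127). Those of the 20 that did not pass in transgenic mice were Myh7, Tnnc1, Atp13a1, Dkk3, Spock2 and Fos. They gave -1.68 ± 0.41, -1.79 ± 0.54, -0.22 ± 0.36, -0.84 ± 0.34, -0.91 ± 0.30 and 2.48 ± 0.55. Their limma adjusted p values were 0.151, 0.583, 0.9997, 0.9997, 0.724 and 0.0594. With the record block Fos passed (0.0296).

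**Figure D4:**
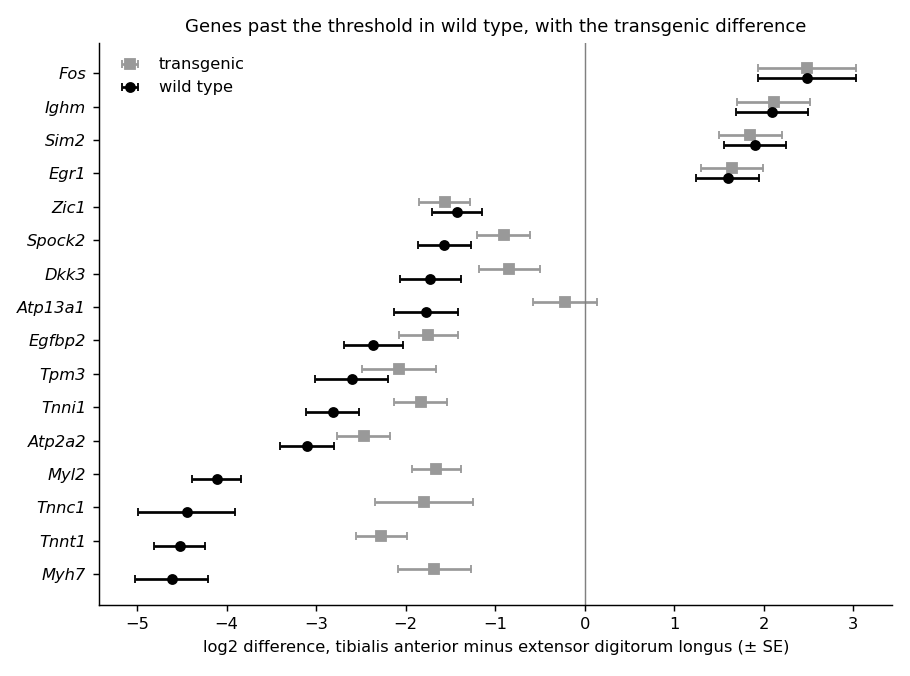
Log2 difference, tibialis anterior minus extensor digitorum longus, with its SE for the 16 genes past the threshold in wild type mice, the transgenic value (grey squares) drawn above the wild type value (black circles). Myl2 and the brighter Tnnt1 probe set stand nearer to 0 in transgenic mice, at -1.66 and -2.27 against -4.11 and -4.52. Others do too, among them Myh7, Tnnc1 and Atp13a1, at -1.68, -1.79 and -0.22 against -4.61, -4.45 and -1.77. Their differences between genotypes did not pass without the record block. Zic1 stands slightly further from 0, at -1.57 against -1.43. Fos, Ighm, Sim2 and Egr1 lie almost on top of their wild type values.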

How the data were processed

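The deposited values are MAS5 signal intensities made by the authors, per the submitters' processing notes. Which MAS5 version and settings were used is not given in the sources used here. Deposited arrays had 2% trimmed means of 1500.93 to 1501.29, which shows prior scaling to a common target. Dividing each to a trimmed mean of 500 preceded the transform, log2(signal + 50), so fold changes are on that scale and understate those of low genes. Of 12488 probe sets 66 controls were left out, and the 9322 with a signal of 100 on at least 6 of 36 arrays were tested. Of these 8308 had 1 gene symbol, 314 several and 700 none, for 6793 genes, and the brightest probe set, on average, stands for its gene.

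Comparisons used limma 3.58.1 (R 4.3.3) over all 36 arrays, with a mean for each muscle and genotype, an age effect for each muscle and a contrast midway between the ages, leaving 21 residual degrees of freedom. The variance had an intensity trend, and Benjamini-Hochberg adjusted p-values were held to a threshold of 0.05. The spread of all muscles and both genotypes enters each SE. Arrays have no read depth, and their number limits the precision. No 2 of the arrays were identical.

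Named genes were the 15 largest differences in each direction past the threshold with a mean of at least 200 in the higher muscle, up to 6 members of each of the 28 lists past the threshold or otherwise 3 with the highest signal, myosin and tropomyosin genes, and positional genes past the threshold. The comparison, the lists and the rule were chosen with earlier results of these data known. Replicate numbers coincide with filled and empty scanner records. Deviations of same-numbered arrays correlated over 0.1 in 117 of 120 pairs of groups (lowest 0.0066, median 0.33, highest 0.70), and in 3 of 3 pairs within this comparison (0.253 to 0.435). The numbers thus mark a factor that same-numbered arrays share. The model was set without this block, and blocked values are given where they change a wild type call or count named here. The block also changed calls of the transgenic contrast, and its transgenic counts are given only without the block. Chad, for example, had a transgenic limma adjusted p of 0.633 without and 0.00644 with it. Other alternatives changed the pseudocount, scaling, filter, arrays in the fit, age terms, blocks and weights, or left out each of the 7 arrays.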

Additional observations from a re-analysis of the deposited data

Results flagged for a closer look

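Among 89 named genes, 1 tibialis anterior array stood apart from the other 3 for 7 genes, by a criterion that chance meets in about 5% of groups. The second 10-month array was low for Tnnt1, slow troponin T (371.2, against 634 to 674), and for Mef2c, a factor of muscle gene control (1327, against 3088 to 3219). The first 10-month array was high for Tpm2, beta tropomyosin (17740, against 13565 to 14237), for Pmp22, a myelin protein (824.2, against 559 to 592), and for Egfbp2 (99.5, against 51.8 to 55.8). The second 7-month array was high for Tnni1, slow troponin I (827.6, against 704 to 714). The first 7-month array was high for Alb, serum albumin (515.9, against 26.8 to 97.8).

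The difference between tibialis anterior and extensor digitorum longus itself differed between transgenic and wild type mice for Myl2 and for the brighter probe set of Tnnt1. On the log2 scale, transgenic minus wild type was 2.25 for this Tnnt1 probe set and 2.45 for Myl2. The dimmer Tnnt1 probe set gave -0.23 ± 0.38 and did not pass.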

How the results depend on the processing

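None of the 16 genes past the threshold by their brightest probe set changed sign under any of the alternatives run. List medians were followed only under quantile normalisation, median scaling and the replicate block, where 3 near 0 changed sign. That of ribosomal protein genes was 0.01 and became -0.10 under quantile normalisation, that of lymphocyte markers was -0.02 and became 0.02 under it, and that of excitability genes was -0.01 and became 0.07 with the replicate block. Myh7, Myl2, Tnnt1, Tnnc1 and Tnni1 stayed past the threshold under all 29, Atp2a2 and Egfbp2 under 28, Tpm3 under 27, Ighm under 23, Spock2 under 21, Sim2 and Dkk3 under 20, Atp13a1 under 18, Zic1 under 17 of 28, and Fos and Egr1 under 11. The 20 probe sets that differed became 66 with the replicate block, which is the record block, 73 with a random block for arrays that may share pools and 59 with scan day as a block. All 20 were among the 66 and among the 73, but only 14 among the 59, in a design where 1 of its 24 columns was redundant. Arrays with an empty record have no known scan day and entered that block together as 1 day. The 20 became 10 with the 7 arrays alone and an age term, 9 with them and no age term, 9 with the 18 wild type arrays, 11 with the 7-month arrays and 7 within empty records. Leaving out each of the 7 arrays gave 10 to 27. The 2 probe sets whose muscle difference depended on genotype became 1 with a pseudocount of 200, with median scaling, with a mean for each of 20 groups, with array weights or without the intensity trend. They became 0 with 7-month arrays (133 at an unadjusted p under 0.05 in limma), within filled records (488) and within empty records (177). Leaving out arrays gave 1 to 3, and the replicate block 3. Of the wild type 20, 14 also passed in transgenic mice, against 2 with 7-month arrays, 6 within filled and 0 within empty records (234 probe sets at an unadjusted p under 0.05 in limma), and 13 to 15 when arrays were left out. The cause of these changes was not tested, though fits on fewer arrays have a smaller sample by construction. Signals below 100 limit what can be said of the sizes of Tnnc1, Egfbp2, Sim2, Zic1 and Atp13a1.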

Other observations

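With the record block 66 probe sets passed (limma, Benjamini-Hochberg), 29 higher in tibialis anterior (0.311%) and 37 lower (0.397%). The genes named here were picked from these after their values were seen. They are single genes and no test of a shared theme. Among those lower in tibialis anterior was a dimmer probe set of Col1a2, the other chain of type I collagen. It read 578 to 1701 in tibialis anterior and 2692 to 2822 in extensor digitorum longus. Its log2 difference with the block was -1.18 ± 0.27 (limma adjusted p = 0.0336, and 0.149 without it). The brighter probe set that stands for Col1a2 did not pass with the block. Fndc1, a fibronectin-domain protein, gave -1.05 ± 0.20 (adjusted p = 0.010, and 0.0571 without the block), and Fbln1, the matrix protein fibulin 1, gave -0.96 ± 0.23 (adjusted p = 0.0456, and 0.107 without it). Gpx3, a secreted glutathione peroxidase, read 3096 to 3500 in tibialis anterior and 5458 to 6964 in extensor digitorum longus (-0.94 ± 0.23, adjusted p = 0.0456, and 0.099 without it). Apod, the lipid carrier apolipoprotein D, gave -1.21 ± 0.28 (adjusted p = 0.0409, and 0.109 without it).

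Among those higher in tibialis anterior was Cyfip2, a regulator of actin assembly, at 1013 to 1503 in tibialis anterior and 571 to 602 in extensor digitorum longus (0.92 ± 0.21, adjusted p = 0.0309, and 0.144 without the block). Ctsk, the collagen-cutting protease cathepsin K, gave 1.06 ± 0.25 (adjusted p = 0.0449, and 0.099 without it). Psmb10, a subunit of the immunoproteasome, read 575 to 704 in tibialis anterior and 280 to 489 in extensor digitorum longus (0.78 ± 0.19, adjusted p = 0.0427, and 0.107 without it). Vegfa, the main growth factor of capillaries, gave 1.24 ± 0.29 with the block (adjusted p = 0.0409, and 0.936 without it), and its arrays overlap, with 197 to 1558 in tibialis anterior and 232 to 958 in extensor digitorum longus.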
